A study of Mus musculus with 12 samples.

Results

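The heterotrimeric G proteins and the RGS proteins that act on them were examined in the RNAseq data of differentiating mouse ANS cells. Members were chosen by symbol alone, as every Gna, Gnb, Gng and numbered Rgs gene in the count tables, which gave 53 of the 22609 genes listed. They comprise 16 Gα, 5 Gβ, 12 Gγ and 20 RGS genes. A heterotrimeric G protein couples a receptor in the membrane to enzymes and channels inside the cell. The Gα subunit binds GTP when the receptor is engaged and separates from the Gβγ pair, and both then act on effectors such as adenylyl cyclases, phospholipase C and potassium channels. RGS proteins speed up the hydrolysis of GTP by Gα and so shorten the signal. In neurons the Gi/o class carries much of the inhibitory input from transmitter receptors, and Gng2 encodes a Gγ subunit of wide distribution whose 3′UTR variants the study measured.

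ANS (adherent neural stem) cells are a neural stem cell culture derived from the brain of mouse embryos at E14.5, and all 12 libraries come from these cells, for which no genetic change is named. The 3 T0 libraries are of cells dividing in growth medium (Euromed-N with N2 supplement, FGF2 and EGF). The 3 T1 libraries are of cells 2 days after the change to medium D1, which holds B27, less FGF and less EGF, when division was much reduced. The 4 T2 libraries were taken 2 days and the 2 T3 libraries 10 days after the change to medium B (a mix of DMEM/F12 and Neurobasal with FGF2 and BDNF, on laminin), when division had stopped, with overt differentiation and GAD-positive cells at T3. The submitters call the libraries of a time point biological replicates, and they are named here by the sample number in their labels, which for T3 are 1 and 4. The labels do not say whether time points shared a culture.

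Reads counted on genes ranged from 8910724 to 16631614 per library (median 12601169), and the members took 0.465% to 0.547% of them. Within a gene, levels are in CPM, for which counts were divided by the library's counted reads and scaled, and between genes in FPKM (the authors' fragments scaled to transcript length and library size). A difference is a log2 fold change ± SE from the quasi-likelihood test of edgeR, with p-values adjusted by Benjamini-Hochberg over all genes tested and a threshold of 0.05. T0 replicate 3 stood apart: the chi-square per gene between libraries was 3.17 for T0 replicates 1 and 2, but 96.4 and 99.9 for replicate 3 against each of them, and at most 32.4 between replicates of any other time point. Counts of members and lists are given with and without it. Of the marker lists, the 7 neuronal markers summed to 833 to 959 CPM in T0 and to 1770 CPM or more in every later library, and 5 of 5 tested rose at T1, 6 of 6 at T2, 3 of 7 at T3. Of 7 progenitor markers, 2 fell at T1 and 3 at T2, and of 7 astrocyte markers 1 fell at T2. With that library left out, 2 progenitor markers rose and 3 fell at T1, 1 and 3 at T2, and 1 and 2 at T3, while of the astrocyte markers 3 fell at T1, 3 fell and 1 rose at T2, and 5 fell and 1 rose at T3. Of the 8 oligodendrocyte lineage markers 1 rose at T1, 3 at T2 and 0 of 7 tested at T3. Their sum was 3133 to 3375 CPM in T0 and 5083 to 6215 in T3. The oligodendrocyte list without T0 replicate 3 gave 3, 5 and 4 higher at the later time points, with 1 lower at each, and the neuronal list 5, 6 and 5 higher. Over all genes tested 15.1% rose and 16.8% fell at T1, 21.4% and 21.8% at T2, and 3.31% and 1.41% at T3. Without that library these shares were 25.2% and 24.9%, 26.7% and 25.3%, and 9.94% and 8.49%. All 6 microglial markers, Aif1 and Cx3cr1 among them, were at or under 3 counts per library, and the 7 pericyte and endothelial markers summed to at most 1.03 CPM, and none of either list was tested. The part of these marker changes in the results on G proteins was not tested. In bulk RNA a change in the share of a cell type and a change in RNA per cell cannot be told apart.

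The 12 Gγ genes were first compared by the end of their coding sequence, since a cysteine near the C terminus carries the lipid that holds the βγ pair on the membrane, and the final residue is known to set which lipid is attached. The last 4 codons and the stop codon, read from the GENCODE vM1 transcripts of NCBIM37 (mm9), are shown for the 5 Gγ genes that dominated these cells or changed and for the 3 that end otherwise, with the cysteine codon in capitals.
Gng2: TGCgccatcctttaa
Gng5: TGCtcctttttgtag
Gng7: TGCataattctctag
Gng10: TGTgctctactttga
Gng12: TGCatcatcttatag
Gng11: TGTgtcatttcataa
Gngt1: TGTgtgatttcatag
Gngt2: TGTgtgctaagctga
All 12 Gγ genes have a cysteine codon at this place, and in 9 of them the last codon before the stop codes for leucine, the residue that goes with a geranylgeranyl group. The exceptions were Gng11, Gngt1 and Gngt2, the Gγ genes known for a farnesyl group, of which the Gngt genes belong to photoreceptors. None of these 3 was detectable in ANS cells, with at most 1 count in any of the 12 libraries for each.

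Gng2 lies on the minus strand at chr14:20691781-20796849 (mm9), and its 6 complete GENCODE transcripts share the same coding sequence of 216 bases but differ in length from 393 to 3826 bases. The longest has a 3′UTR of 3248 bases in its last exon, and in the other 5 the annotated 3′UTR is between 14 and 152 bases. The study amplified Gng2 with one primer pair common to all variants (Pre) and one in the long 3′UTR (Post), which are shown because they mark the part of the gene in question. Capitals mark the complement of the stop codon.
Pre forward: cTTAaaggatggcgcagaag
Pre reverse: acaagccaggaagctggtag
Post forward: aaagatgcgcacatcacatt
Post reverse: attcccctgtctctgactcg
Each primer matched NCBIM37 exactly at 1 place. The Pre forward primer (chr14:20695028-20695047) covers the stop codon in exon 4 of 4, and the Pre reverse primer (chr14:20710546-20710565) is in the coding part of exon 3, so that the spliced product is of 188 bases and is held by 6 of 6 transcripts. The Post pair (chr14:20691831-20691927, 97 bases) is in the 3′UTR, 3102 to 3198 bases after the stop codon, and only the longest transcript holds it. The qPCR values were not analysed here.

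By FPKM a few genes held most of the G protein RNA of ANS cells in every library. Of the summed FPKM of their families, Gnas took 49.6% to 61.9%, Gnb2 69.0% to 73.5% and Gng12 28.1% to 37.0% over the 12 libraries. Among Gα genes, Gnas, which encodes the stimulatory Gαs, stood at 666 ± 132 FPKM at T0 (SD, n = 3) and Gnai2, of the inhibitory class, at 257 ± 7.37. Next came Gnai3 at 51.2 ± 12.2, Gna13 at 51.0 ± 8.61 and Gna12 at 46.6 ± 0.896 FPKM, which overlapped within their SD. By counts, Gnas had 1235 ± 132 CPM at T0 over 11186 annotated exon bases, and Gnai2 693 ± 56.4 CPM over 2185. Per exon base Gnai2 was thus above Gnas, so their order depends on the length used. Of the Gβ genes, Gnb2 stood at 489 ± 73.9 and Gnb1 at 159.9 ± 32.0 FPKM at T0, but counts reversed this order. Per 1000 annotated exon bases Gnb1 had 202 ± 17.7 CPM and Gnb2 112 ± 5.64 at T0, and Gnb2 took 32.2% to 36.9% of summed Gβ CPM. Gng12 (96.4 ± 9.23 FPKM) led the Gγ genes on both scales, with 62.0 ± 0.976 CPM per 1000 exon bases. Gng5 (65.0 ± 10.4 FPKM), Gng2 (54.9 ± 15.0) and Gng10 (49.9 ± 7.85) followed by FPKM. Per 1000 exon bases the order was Gng10 (51.4 ± 1.74 CPM), Gng2 (18.5 ± 0.558) and Gng5 (11.8 ± 0.596). The exon bases are those of all annotated transcripts of a gene together. For Gng5 they come to 2738, while its transcripts are of 566, 593 and 2419 bases, so this order depends on the length used. Of RGS genes, Rgs19 (44.5 ± 22.8 FPKM) and Rgs20 (32.9 ± 10.2) were highest at T0, and Rgs12 (50.9 ± 2.17 at T1) and Rgs19 (43.2 ± 7.52) at T1. In the FPKM table the loci of 12 members ran more than 20 bases longer than the annotated gene. Among them were Gnas (65508 against 62425 bases), Gnb2 (58460 against 5384) and Gng5 (191971 against 5739). Their FPKM can hold reads of neighbours, while counts leave out reads that aligned at several places.

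At the low end, 13 members had at most 3 counts in every library: Gna15, Gnat1, Gnat3, Gng11, Gng13, Gngt1, Gngt2, Rgs1, Rgs4, Rgs5, Rgs13, Rgs18 and Rgs22. Their RNA was not detectable at this depth, which is a limit of counting only. A further 6 (Gna14, Gnat2, Gnb3, Gng4, Rgs6 and Rgs11) reached at most 8 counts and passed the filter on low counts in no comparison. The other 34 were tested in at least 1 comparison. Those not detected include genes known from sensory cells, such as Gnat1 (rod transducin) and Gnat3 (gustducin), and from immune cells, such as Gna15, Rgs1 and Rgs18. The list is not limited to such genes, and Rgs4, for example, also had at most 1 count in any library.

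**Figure D1:**
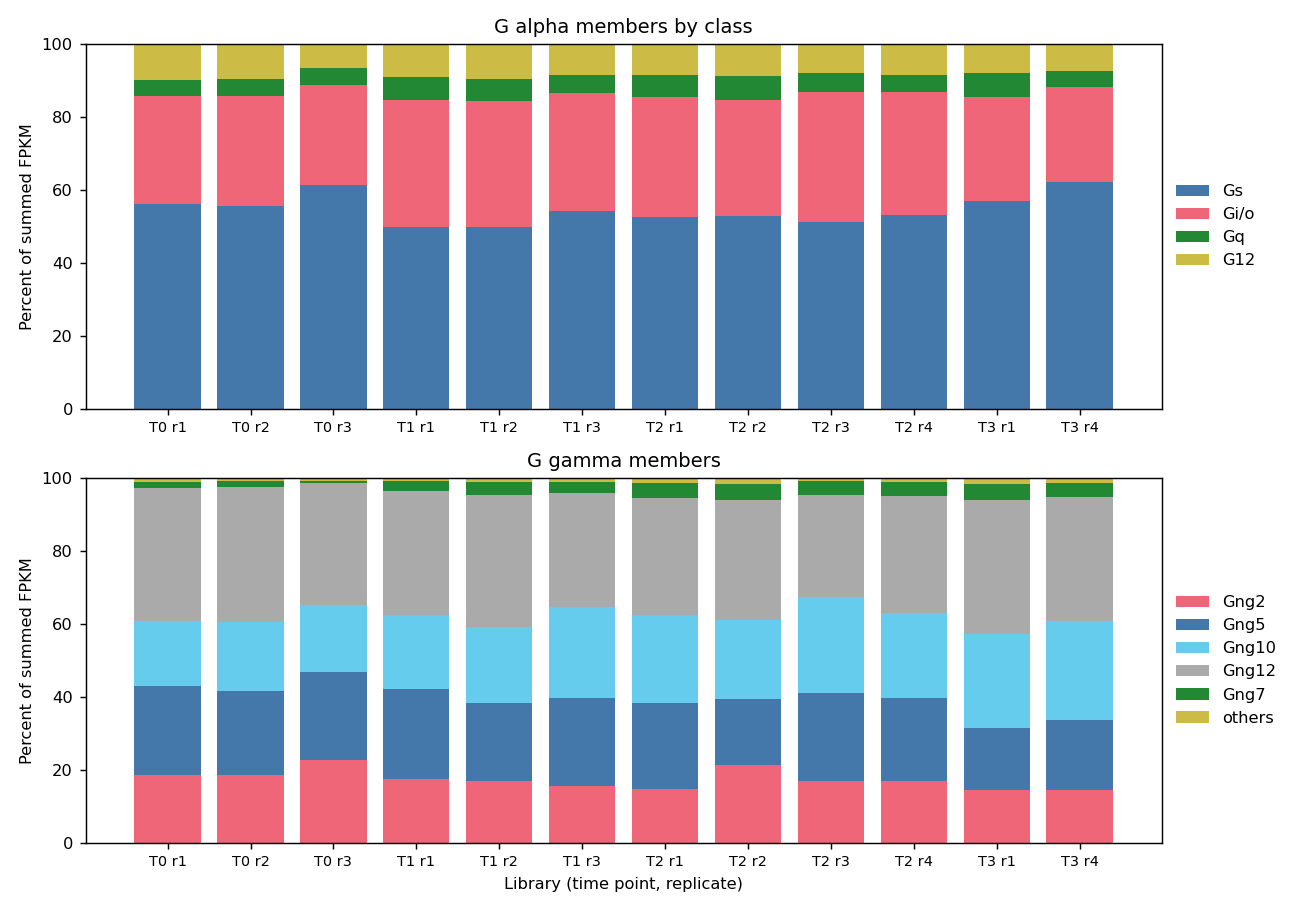
Share of the summed FPKM taken by each Gα class (top) and by 5 Gγ genes and the others together (bottom), in percent, with 1 bar per library (r is the replicate number). The Gs class took the largest share of Gα in all 12 libraries, and Gng12, at 28.1% to 37.0%, the largest share of Gγ.

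The Gi/o class took 29.1% ± 1.35 of summed Gα FPKM in T0 (SD, n = 3), 34.1% ± 1.33 in T1 (n = 3), 33.5% ± 1.66 in T2 (n = 4) and 27.3% ± 1.86 in T3 (n = 2). The 7 libraries of T1 and T2 lay at 31.8% or above and the 5 of T0 and T3 at 30.1% or below. Gng2 took 20.0% ± 2.36 of summed Gγ FPKM in T0, 16.7% ± 0.965 in T1, 17.4% ± 2.78 in T2 and 14.4% ± 0.0366 in T3, where T1 lay below T0, T2 overlapped both and T3 lay below all. By counts the direction from T0 to T2 was the opposite, since Gng2 took 16.6% ± 0.371 of summed Gγ CPM in T0, 20.8% ± 0.748 in T1, 20.5% ± 1.69 in T2 and 17.8% ± 0.346 in T3. The Gi/o share of summed Gα CPM was 34.2% in T0, 38.0% in T1, 37.5% in T2 and 32.2% in T3, in the same order as by FPKM. These shares are given as descriptions, with no test.

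At T1, 11 of the 33 members tested rose against T0 and 0 fell. Over all 12364 genes tested, 15.1% rose and 16.8% fell. The median log2 fold change was 0.10 for the members and -0.0082 for all genes. At T2, 12 of 33 members rose and 0 fell, where 21.4% of all 12607 genes rose and 21.8% fell, with medians of 0.098 and 0.0023. The 11 members that rose at T1 were among the 12 at T2, and both comparisons share the T0 libraries. The 12 are Gnal, Gnao1 and Gnaq among Gα, Gnb5 among Gβ, Gng2 and Gng7 among Gγ, and Rgs3, Rgs7, Rgs8, Rgs12 and Rgs16 and, at T2 alone, Gng10. By family at T1 they were 3 of 11 Gα, 1 of 4 Gβ, 2 of 7 Gγ and 5 of 11 RGS genes tested. Without T0 replicate 3 the counts were 13 higher and 4 lower at T1, and 16 higher and 3 lower at T2. In those fits 25.2% of all genes rose and 24.9% fell at T1, and 26.7% and 25.3% at T2. The members that rose with all libraries were also called without T0 replicate 3, 11 of 11 at T1 and 12 of 12 at T2. Added without it at T1 were Gnai3 and Rgs2 as higher, and Gna13, Gng8, Rgs9 and Rgs20 as lower. Added at T2 were Gnai1, Gnaz, Rgs2 and Rgs14 as higher, and Gna13, Rgs9 and Rgs20 as lower. At T1 the number that rose was 7 without T0 replicate 1, T1 replicate 1 or T1 replicate 3, and 6 without T1 replicate 2. In those fits 11.2%, 6.68%, 8.47% and 6.47% of all genes rose, in that order. Of the tested members that passed in no comparison, the log2 fold change lay between -0.75 (Rgs20) and 0.21 (Gnaz) at T1, and between -0.70 (Rgs20) and 0.96 (Gng3) at T2.

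**Figure D2:**
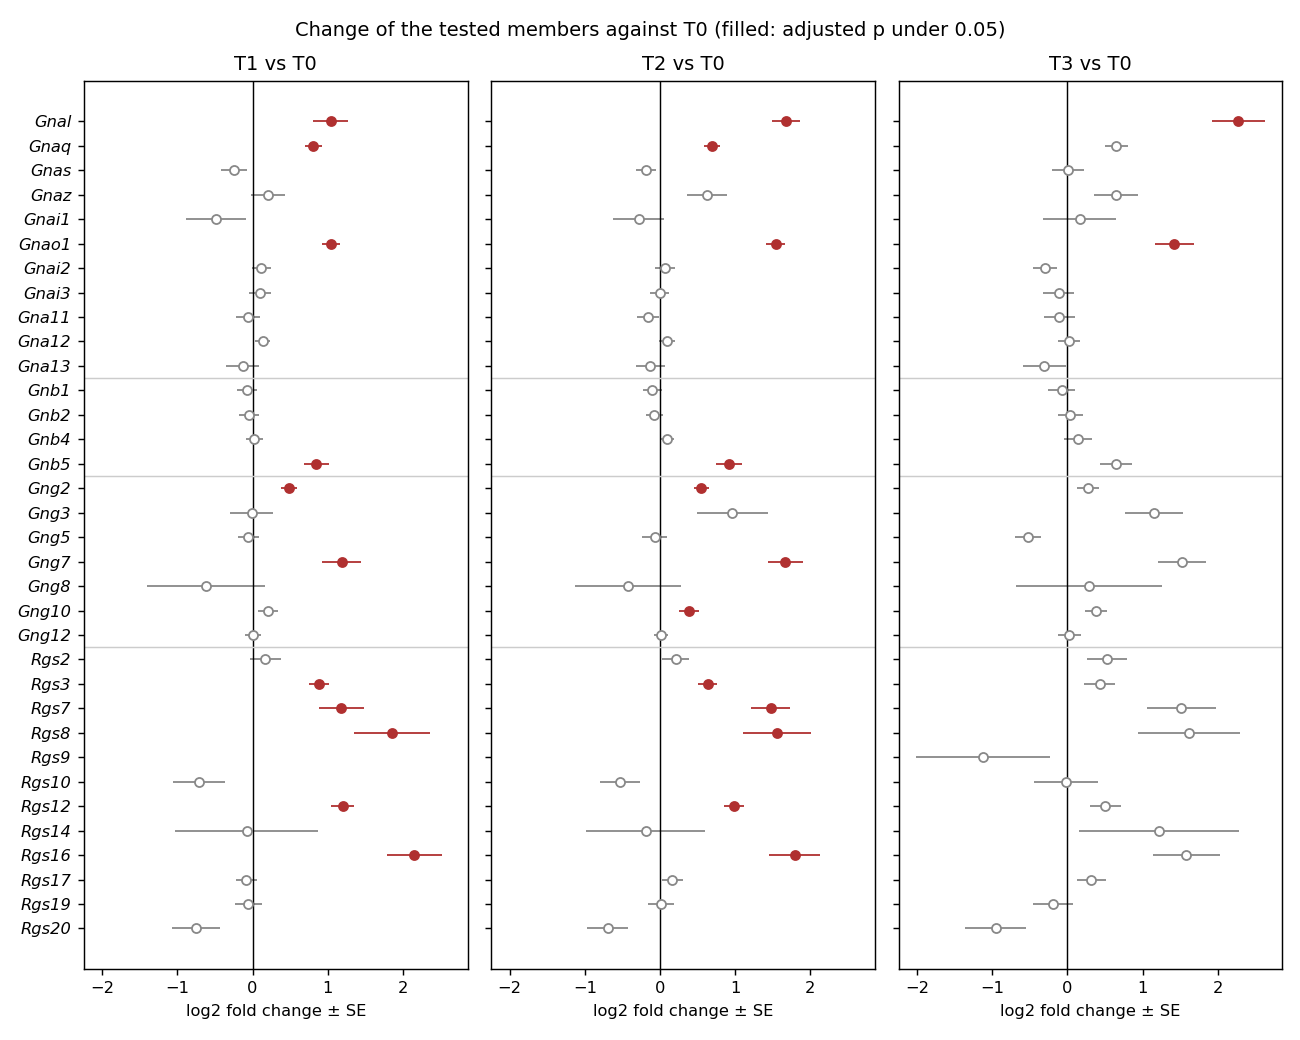
Log2 fold change of each tested member against T0 at T1, T2 and T3, with bars of 1 SE and filled points for an adjusted p under 0.05 (edgeR). Families are separated by grey lines from Gα (top) to RGS (bottom), and 11, 12 and 2 points are filled, all to the right of 0.

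Among Gα genes the largest rises were of neuronal subunits. Gnao1 (chr8:96333866-96493288) encodes Gαo, the inhibitory subunit most abundant in brain. Gnao1 was at 28.9, 29.4 and 31.1 CPM in the T0 libraries, 59.8, 67.1 and 61.3 in those of T1, 86.6, 97.6, 79.4 and 97.6 in T2 and 105 and 61.8 in T3. Every library of T1, T2 and T3 lay above every T0 library, and T1 did not overlap T2. The log2 fold change was 1.04 ± 0.121 (adjusted p = 0.00144) at T1 and 1.54 ± 0.125 (adjusted p = 9.08e-05) at T2. Gnal encodes Gαolf, the stimulatory subunit of olfactory and striatal neurons, and was low throughout. Gnal was at 3.50, 4.60 and 3.42 CPM in the T0 libraries, 6.67, 9.51 and 7.94 in those of T1, 14.4, 12.3, 11.6 and 12.8 in T2 and 25.3 and 13.5 in T3. The time points up to T2 did not overlap, and 1 T3 library lay within the T2 range while the other was far above it. Gnal rose by 1.04 ± 0.235 (adjusted p = 0.017) at T1 and by 1.68 ± 0.184 (adjusted p = 0.000267) at T2, and the call at T1 was lost without T0 replicate 1, T1 replicate 2 or T1 replicate 3. Of its annotated exon bases, 4.61% are shared with Mppe1 on the other strand, and the kit does not mark strand.

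Gnaq encodes Gαq, which activates phospholipase C. Gnaq was at 93.9, 103 and 99.8 CPM in the T0 libraries, 167, 189.8 and 175 in those of T1, 162, 182, 154 and 168 in T2 and 174 and 151 in T3. The T0 libraries lay below all others, which overlapped, and the change was 0.81 ± 0.111 (adjusted p = 0.00267) at T1 and 0.69 ± 0.106 (adjusted p = 0.0014) at T2. Its close relative Gna11, which acts on the same effector, gave -0.063 ± 0.162 (adjusted p = 0.783) at T1 and -0.16 ± 0.143 (adjusted p = 0.399) at T2. The 2 Gα genes highest by FPKM passed no test: Gnas gave -0.24 ± 0.171 (adjusted p = 0.303) at T1 and Gnai2 gave 0.12 ± 0.123 (adjusted p = 0.482). The ranges over all 12 libraries were 962 to 1508 CPM for Gnas and 585 to 858 for Gnai2. For Gnas, 22% of the annotated exon bases are shared with antisense genes of its imprinted locus. Gnaz, whose product Gαz also belongs to the Gi/o class, was low (5.15 to 13.5 CPM) and gave 0.62 ± 0.267 (adjusted p = 0.09) at T2. The G12 class (Gna12 and Gna13) gave no call with all libraries.

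Of the Gβ genes only Gnb5 passed the test against T0. Gnb5 (chr9:75159202-75193678) encodes the Gβ that pairs with RGS proteins of the R7 class in place of a Gγ. Gnb5 was at 31.8, 31.0 and 20.8 CPM in the T0 libraries, 53.6, 48.3 and 51.0 in those of T1, 54.2, 43.8, 62.2 and 57.8 in T2 and 46.4 and 44.7 in T3. No T0 library overlapped a later one. Gnb5 rose by 0.85 ± 0.165 (adjusted p = 0.00998) at T1, a call lost without T1 replicate 1, and by 0.91 ± 0.171 (adjusted p = 0.00354) at T2. The Gβ genes that pair with Gγ gave small values at T1, -0.07 ± 0.134 for Gnb1, -0.044 ± 0.136 for Gnb2 and 0.023 ± 0.111 for Gnb4, with adjusted p of 0.708, 0.819 and 0.888 in the same fit by edgeR.

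Among Gγ genes, Gng7 rose most. Gng7 (chr10:80411369-80477690) encodes a Gγ known to pair with Gαolf. Gng7 was at 18.8, 16.4 and 8.68 CPM in the T0 libraries, 30.1, 37.3 and 33.2 in those of T1, 43.0, 46.2, 54.3 and 48.2 in T2 and 45.1 and 42.6 in T3. All later libraries lay above those of T0, and T1 lay below T2. The change was 1.18 ± 0.264 (adjusted p = 0.0163) at T1, a call lost without T1 replicate 2 or T1 replicate 3, and 1.67 ± 0.233 (adjusted p = 0.000873) at T2. By counts, Gng2 rose as well but by less. Gng2 was at 78.7, 82.4 and 83.3 CPM in the T0 libraries, 115, 123 and 112 in those of T1, 118, 133, 128 and 117 in T2 and 106 and 101 in T3. The T0 libraries lay close together and below every other library, and T3 lay below T1 and T2. Gng2 rose by 0.49 ± 0.106 (adjusted p = 0.0146) at T1 and 0.55 ± 0.101 (adjusted p = 0.00333) at T2, with a mean of 81.4 ± 2.45 CPM at T0 (SD, n = 3) against 124 ± 7.61 at T2 (n = 4). At T1 the adjusted p went over the threshold without T0 replicate 1 (0.054), T1 replicate 1 (0.0604) or T1 replicate 2 (0.0657).

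Gng10 passed the test at T2 only, with 0.38 ± 0.128 (adjusted p = 0.0391) against 0.20 ± 0.132 (adjusted p = 0.268) at T1, and the difference between T2 and T1 itself did not, with 0.17 (adjusted p = 0.641). Gng10 was at 64.9, 68.4 and 69.1 CPM in the T0 libraries, 74.9, 71.9 and 91.4 in those of T1, 88.4, 79.5, 111 and 88.9 in T2 and 93.5 and 90.7 in T3. All later libraries were above T0. The call at T2 was lost without T0 replicate 1, T0 replicate 2, T2 replicate 1, T2 replicate 3 or T2 replicate 4, with no filter on low counts, and with the replicate number as a block. In the annotation 72% of its exon bases also belong to Gm20503 on the same strand, so its counts are uncertain. Gng12, the highest Gγ by FPKM, ranged from 286 to 329 CPM over the 12 libraries and gave 0.0041 ± 0.105 (adjusted p = 0.979) at T1 and 0.015 ± 0.0962 (adjusted p = 0.915) at T2. Gng3, a Gγ of neurons that shares 23.4% of its exon bases with Bscl2, was low and uneven at T2. Gng3 was at 2.09, 1.72 and 2.76 CPM in the T0 libraries, 2.39, 2.20 and 2.10 in those of T1, 5.93, 7.25, 1.87 and 2.93 in T2 and 5.94 and 4.26 in T3. The T2 libraries numbered 1 and 2 were high and those numbered 3 and 4 were within or near the T0 range, and the change of 0.96 ± 0.477 (adjusted p = 0.133) did not pass.

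RGS genes are grouped by class. Of the R4 class, small proteins that act on Gi/o and Gq, 4 of 9 were tested and Rgs3, Rgs8 and Rgs16 rose at T1 and at T2, while Rgs2, which prefers Gαq, gave 0.17 ± 0.204 (adjusted p = 0.543) at T1. Rgs16 (chr1:155587479-155592598) had the largest change of any member at T1. Rgs16 was at 2.16, 2.20 and 0.920 CPM in the T0 libraries, 6.50, 10.1 and 7.16 in those of T1, 6.13, 8.36, 5.91 and 4.86 in T2 and 5.60 and 5.39 in T3. It was low, and no T0 library overlapped a later one. The change was 2.15 ± 0.364 (adjusted p = 0.00611) at T1 and 1.79 ± 0.340 (adjusted p = 0.00374) at T2. Rgs8 is a brain RGS of this class. Rgs8 was at 18.2, 21.3 and 4.14 CPM in the T0 libraries, 45.7, 61.9 and 51.6 in those of T1, 46.5, 55.5, 38.2 and 35.8 in T2 and 63.8 and 28.1 in T3. T0 replicate 3 was the lowest and the T3 libraries lay far apart. Rgs8 rose by 1.86 ± 0.506 (adjusted p = 0.0314) at T1 and 1.56 ± 0.454 (adjusted p = 0.024) at T2, and without T0 replicate 3 by 1.43 (adjusted p = 9.12e-05) and 1.12 (adjusted p = 0.000799). The T1 call was lost without T0 replicate 1 or any of the 3 T1 libraries, and the T2 call without T2 replicate 1 or T2 replicate 2. Rgs3, which exists in a short and a long form, moved in a narrower range. Rgs3 was at 27.4, 27.1 and 21.0 CPM in the T0 libraries, 48.6, 47.0 and 45.8 in those of T1, 37.3, 38.9, 42.6 and 43.4 in T2 and 39.1 and 31.6 in T3. T1 lay above T2 and both above T0, with 0.88 ± 0.130 (adjusted p = 0.00361) at T1 and 0.63 ± 0.126 (adjusted p = 0.00468) at T2. The T2 call of Rgs3 was lost with the replicate number as a block.

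Of the R7 class, the partners of Gnb5, Rgs7 was the only member above the filter at T1 and T2. Rgs7 was at 14.1, 13.7 and 26.0 CPM in the T0 libraries, 36.5, 47.7 and 41.3 in those of T1, 49.2, 51.9, 58.8 and 48.9 in T2 and 74.8 and 33.0 in T3. Unlike for Rgs8, T0 replicate 3 was the highest of T0, yet below all later libraries. Rgs7 (chr1:176989867-177421261) rose by 1.18 ± 0.295 (adjusted p = 0.0238) at T1 and 1.47 ± 0.254 (adjusted p = 0.00241) at T2. Of the 6 fits that left out 1 library at T1, only the fit without T0 replicate 3 kept the call of Rgs7. The other R7 genes, Rgs6, Rgs9 and Rgs11, had at most 19 counts in a library. Of the R12 class, Rgs12, a large protein with several binding domains besides the RGS domain, rose at T1 and T2 against T0. Rgs12 was at 99.7, 98.7 and 68.7 CPM in the T0 libraries, 220.1, 206 and 196 in those of T1, 177, 200.1, 175 and 177 in T2 and 144 and 119.7 in T3. T1 and T2 lay far above T0 and T3 lay between, and only T2 replicate 2 reached into the T1 range. Rgs12 rose by 1.20 ± 0.147 (adjusted p = 0.00182) at T1 and 0.98 ± 0.136 (adjusted p = 0.00084) at T2. Rgs10, of the same class, gave -0.71 ± 0.348 (adjusted p = 0.155) at T1. The RZ class (Rgs17, Rgs19 and Rgs20), which acts on Gαz and Gi/o, gave no call with all libraries.

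**Figure D3:**
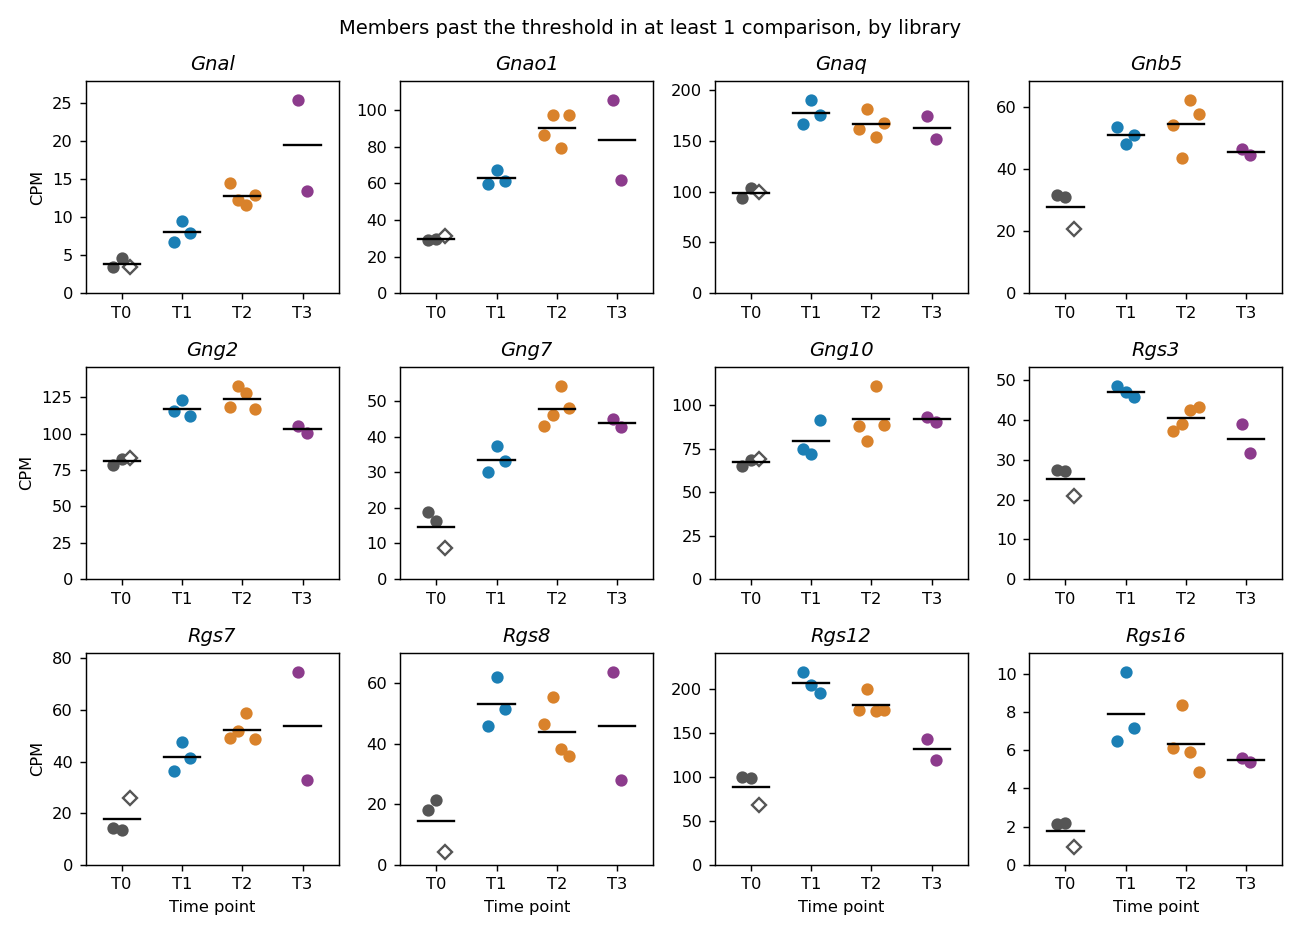
CPM by library of the 12 members past the threshold in at least 1 comparison, with 1 point per library, a black line at the mean of the time point and an open diamond for T0 replicate 3. In each panel the T0 libraries lie below those of T1 and T2, while the 2 T3 libraries of Gnal, Gnao1, Rgs7 and Rgs8 lie far apart.

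At T3, with 2 libraries, 2 of 34 members passed the test against T0 and 0 fell, where 3.31% of all genes rose and 1.41% fell. Gnal rose by 2.27 ± 0.355 (adjusted p = 0.032) and Gnao1 by 1.42 ± 0.258 (adjusted p = 0.0427). DESeq2 called 6 higher (Gnal, Gnao1, Gnaq, Gng7, Rgs7 and Rgs16) and 0 lower, where it called 6.26% of all genes higher and 5.44% lower. Gng7 gave 1.53 ± 0.319 (adjusted p = 0.0555), Gnaq 0.65 ± 0.153 (adjusted p = 0.0685) and Rgs16 1.58 ± 0.442 (adjusted p = 0.0946) by edgeR. Without T0 replicate 1 or T0 replicate 2 the count was 0. Those fits called 0.111% and 0.104% of all genes higher, and 0.00794% and 0.016% lower. In those fits and the fits without T3 replicate 1 or T3 replicate 4, the log2 fold change was 1.73 to 2.66 for Gnal and 0.97 to 1.76 for Gnao1. Where a T3 library was left out the spread came from T0 alone, with the lone T3 library assumed to vary alike. The count without T0 replicate 3 was 10 higher and 2 lower, beside 9.94% and 8.49% of all genes. The T3 libraries lay far apart for Rgs7 (74.8 and 33.0 CPM) and Gnao1 (105 and 61.8 CPM). Members that passed in no comparison lay between -1.12 (Rgs9) and 1.21 (Rgs14) at T3. For Gng2 the change at T3 was 0.27 ± 0.142 (adjusted p = 0.284).

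Between neighbouring steps few genes moved, and no member passed the test with the unpaired fit. From T1 to T2, 0 of 32 members were called by edgeR, where 0.573% of all genes rose and 0.0565% fell. Gnao1 came closest, with 0.49 ± 0.0983 (adjusted p = 0.0705), followed by Gng7 with 0.47 ± 0.108 (adjusted p = 0.0961) and Gnal with 0.62 ± 0.155 (adjusted p = 0.127). In each of them all T2 libraries lay above all T1 libraries. Libraries of the same number deviated together in these groups, and with the replicate number as a block Gnao1 passed, with 0.44 (adjusted p = 0.0275), as the 1 member called higher beside 1.51% of all genes, with 0 lower beside 0.476%. DESeq2 called Gnao1, Gng7 and Gnal higher and 0 lower, beside 1.32% and 0.401% of all genes. From T2 to T3, 0 of 33 members were called by edgeR, with 0.5% of all genes higher and 0.691% lower. Gnai1 gave 0.44 ± 0.0961 (adjusted p = 0.0681) and Rgs12 -0.48 ± 0.123 (adjusted p = 0.0892), and these 2 were the members called by DESeq2, Gnai1 as higher and Rgs12 as lower, beside 2.39% and 1.84% of all genes. Gng2 gave -0.28 ± 0.103 (adjusted p = 0.213), with both T3 libraries below all T2 libraries.

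For several members T0 replicate 3 lay far from the other T0 libraries. Rgs20, an RGS of the RZ class that acts on Gαz, is one of them. Rgs20 was at 49.6, 54.2 and 21.0 CPM in the T0 libraries, 22.4, 24.3 and 28.3 in those of T1, 25.2, 28.3, 25.2 and 27.2 in T2 and 20.0 and 24.7 in T3. T0 replicates 1 and 2 were above every later library, and T0 replicate 3 was inside the later range. With all libraries Rgs20 gave -0.75 ± 0.321 (adjusted p = 0.115) at T1, then -0.70 ± 0.269 (adjusted p = 0.0658) and -0.96 ± 0.409 (adjusted p = 0.207) against T0. Without T0 replicate 3 it fell at all of them, with log2 fold changes of -1.05 (adjusted p = 0.000122), -0.9993 (adjusted p = 2.51e-05) and -1.26 (adjusted p = 0.0134). Gna13, of the G12 class, had T0 replicate 3 on the same side. Gna13 was at 377, 394 and 208 CPM in the T0 libraries, 295, 302 and 308 in those of T1, 298, 291, 312 and 336 in T2 and 289 and 261 in T3. T0 replicates 1 and 2 were above every later library and T0 replicate 3 was below them all. Without T0 replicate 3 it gave -0.35 (adjusted p = 0.00534) at T1, then -0.35 (adjusted p = 0.00703) and -0.53 (adjusted p = 0.0431).

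Gnai1, of the Gi/o class, deviated the other way. Gnai1 was at 30.8, 35.4 and 85.7 CPM in the T0 libraries, 36.1, 37.8 and 38.7 in those of T1, 44.9, 42.0, 44.2 and 44.7 in T2 and 60.0 and 60.3 in T3. T0 replicates 1 and 2 lay below all other libraries and T0 replicate 3 above them. The change at T2 was -0.29 ± 0.340 (adjusted p = 0.521) with all libraries and 0.38 (adjusted p = 0.00738) without T0 replicate 3, so its direction depended on that library, and at T3 it was 0.16 ± 0.483 (adjusted p = 0.858) and 0.82 (adjusted p = 0.0204). Rgs14, of the R12 class, had 36 counts in T0 replicate 3 and at most 5 in the other T0 libraries. It gave -0.19 ± 0.794 (adjusted p = 0.861) at T2 with all libraries and 1.78 (adjusted p = 0.0218) without it. In Gng8, a low Gγ, the same library had 1 count against 19 and 20, and the change at T1 without it was -1.16 (adjusted p = 0.0186).

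**Figure D4:**
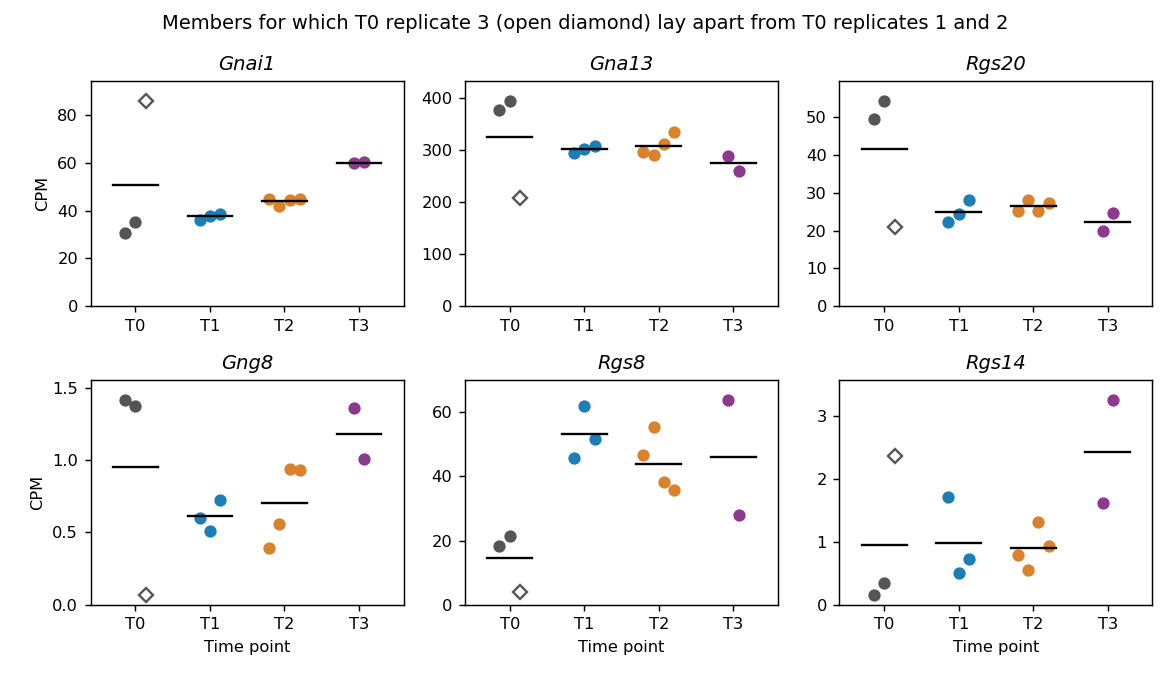
CPM by library of 6 members for which T0 replicate 3 (open diamond) lay apart from T0 replicates 1 and 2, with 1 point per library and a black line at the mean of the time point. For Gna13, Rgs20, Gng8 and Rgs8 the diamond is the lowest of T0, and for Gnai1 and Rgs14 the highest.

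Gng2 went the other way on the FPKM scale. The sign of the change differed between counts and FPKM for 4 of 30 members at T1, 6 of 31 at T2, and for T3 7 of 30, Gng2 among them each time. Some of these changes were small, such as that of Gnb4 at T1 (0.023 by counts and -0.019 by FPKM). The share of all genes that turned was not taken. In the authors' table Gng2 was at 45.1, 47.4 and 72.2 FPKM in the T0 libraries, 46.5, 42.8 and 42.0 in those of T1, 36.6, 50.2, 46.8 and 41.1 in T2 and 34.5 and 27.4 in T3. T0 replicate 3 was the highest library and the T3 libraries were the lowest, while T0 replicates 1 and 2, T1 and T2 overlapped. With limma on log2(FPKM + 1) the change for T1, T2 and T3 in turn was -0.29 ± 0.200, -0.30 ± 0.195 and -0.78 ± 0.277, with adjusted p of 0.336, 0.26 and 0.162, so the direction was opposite to that of the counts and passed at no time point. In the same fits Gnaq, Gnb5, Gng7, Rgs3, Rgs7, Rgs12 and Rgs16 rose at T1, and these 7 with Gnal and Gnao1 at T2, where Rgs20 fell. Of all genes these fits called 9.6% higher and 10.5% lower at T1 and 11.8% and 22.5% at T2. Counts take the reads assigned to a single gene, and leave out reads that aligned at several places or fell on several genes. FPKM also divides by a transcript length, and how such reads were treated there is not given. Their ratio can thus move with the lengths of the variants present and with how reads were assigned.

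The ratio of CPM to FPKM was taken for each gene and divided by the median gene of the library. For Gng2 it was 0.603, 0.590 and 0.463 in the T0 libraries, 0.859, 0.982 and 0.930 in those of T1, 1.04, 0.842, 0.841 and 0.855 in T2, and 0.976 and 0.962 in T3. No T0 library overlapped a later one. The log2 change of the ratio from T0 was 0.75 ± 0.119, 0.70 ± 0.121 and 0.82 ± 0.132 in turn, which ranked Gng2 at 42, 58 and 40 of 11166 genes from the highest. By limma over those genes the adjusted p was 0.194, 0.0811 and 0.308, so the change did not pass, and no other of the 31 members in that fit did. Few genes passed at all, 0.00896% higher and 0 lower at T1, 0.143% and 0.107% at T2, and 0 in both directions at T3. Without T0 replicate 3 the log2 change was 0.63, 0.58 and 0.70 (adjusted p = 0.204, 0.134 and 0.417 by limma). Rgs17 had 0.28, 0.73 and 0.67 (adjusted p = 0.743, 0.35 and 0.461 by limma). For Gnb1, which the study lists together with Gng2 among its genes with an elongated 3′UTR, the log2 change was -0.011, -0.019 and -0.021 in the same order. That listing rests on the levels of the short and long variants, a measure unlike this ratio over the whole gene. The ratio was therefore no check of the listing. This ratio was chosen after the values were seen, the tool behind the FPKM is not given in the sources used here, and the cause of the change was not tested. The locus of Gng2 in the FPKM table is that of the annotated gene.

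**Figure D5:**
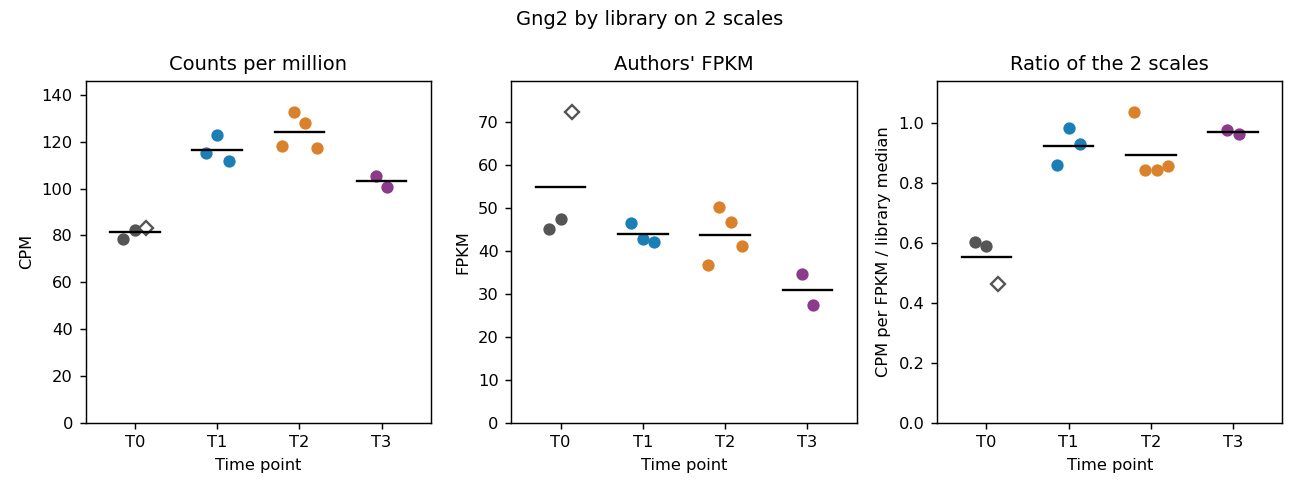
Gng2 by library as CPM (left), as the authors' FPKM (middle) and as the ratio of both relative to the median gene of the library (right), with a black line at the mean of each time point and an open diamond for T0 replicate 3. CPM and the ratio are lowest at T0, whereas FPKM is lowest at T3.

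The partners of the G proteins were listed apart. Of 44 listed chaperones, exchange factors, effectors, kinases and arrestins, 43 were found and 35 were tested at each time point, of which 11 rose and 1 fell at T1, 13 rose and 3 fell at T2, while at T3 there were 3 that rose. Over all genes tested the shares higher and lower were 15.1% and 16.8% at T1, 21.4% and 21.8% at T2, and 3.31% and 1.41% at T3, and these also stand against the receptor counts. The lowest adjusted p by edgeR at T1 were those of Adcy5, an adenylyl cyclase (3.35 ± 0.328, adjusted p = 0.000834), and Arrb1, an arrestin (1.90 ± 0.195, adjusted p = 0.001). The 1 that fell was Gpr158, a receptor that binds Rgs7 with Gnb5 (-1.30 ± 0.339, adjusted p = 0.0271). At T2 Adcy5 (4.14 ± 0.318, adjusted p = 7.8e-05) and Adcy1 (2.39 ± 0.207, adjusted p = 0.000108) led, while Plcb3 (-0.57 ± 0.102, adjusted p = 0.00282) and Akap13 (-0.82 ± 0.210, adjusted p = 0.014) fell. At T3 the rise was led by Adcy5 (4.36 ± 0.381, adjusted p = 0.0136) and Adcy1 (3.47 ± 0.166, adjusted p = 0.00552), of which Adcy1 also rose from T1 to T2 and again from T2 to T3 by edgeR. The median log2 fold change of the list was 0.077, 0.36 and 0.46 at T1, T2 and T3, beside -0.0082, 0.0023 and -0.015 over all genes. Without T0 replicate 3 the list gave 12 higher and 7 lower at T1, then 14 and 3, and 7 and 2, and the shares over all genes were 25.2% and 24.9%, 26.7% and 25.3%, and 9.94% and 8.49%.

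Receptors were grouped by the G protein class they are known for. Of 29 receptors coupled to Gi/o, 10 were tested at T1, of which 4 rose and 1 fell, and 12 at T2 and T3, of which 6 and 2 rose. Gabbr2, a subunit of the GABA-B receptor, was among those that rose at T2 (2.58 ± 0.192, adjusted p = 7.53e-05), as was Grm3, a glutamate receptor (3.20 ± 0.278, adjusted p = 0.000109). The summed level of the 29 ranged from 163 to 495 CPM in T0, from 902 to 1099 in T1 and T2, and from 491 to 787 in T3. Of 22 receptors coupled to Gq, 1 of 9 tested rose and 2 fell at T1, and 2 of 10 rose and 3 fell at T2, Chrm3 (-2.84 ± 0.571, adjusted p = 0.00486) and Grm5 (-1.26 ± 0.266, adjusted p = 0.0062) among the latter. At T3, 1 of 11 rose. Of 17 receptors coupled to Gs, 3 were tested, and Adora2b rose at T1 and T2. From T2 to T3 the Gi/o receptor Chrm4 (-1.87 ± 0.252, adjusted p = 0.0292) and the Gs receptor Adcyap1r1 (-2.04 ± 0.182, adjusted p = 0.0117) fell, and Adra2a was the 1 receptor that rose from T1 to T2 (2.11 ± 0.378, adjusted p = 0.0434). Without T0 replicate 3 the Gi/o receptors gave 5 higher and 4 lower at T1, then 7 and 1, and 4 and 3. The Gq receptors then gave 3 and 3, 4 and 4, and 3 and 0, and the Gs receptors 2 and 0, 2 and 0, and 0 and 1. In these fits 25.2% of all genes were higher and 24.9% lower at T1, 26.7% and 25.3% at T2, and 9.94% and 8.49% at T3.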

How the data were processed

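PolyA RNA of 12 libraries of ANS cells was sequenced from TruSeq RNA v2 libraries, which do not mark strand. Per the labels, the authors called bases with CASAVA 1.8, and name TopHat2 2.0.6, Bowtie 0.12.7.0, HTSeq 0.6.0, DESeq2 1.0.0 and the mm9 build. The deposited counts are raw reads per gene for each library, and the rows that name no gene (43.1% to 48.1% of all entries) were left out. The authors also deposited FPKM per gene, whose tool is not given in the sources used here. Gene counts totalled 8910724 to 16631614 per library, and low counts are limited by counting error.

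Time points were compared in pairs with the quasi-likelihood test of edgeR 4.0.16 (R 4.3.3) with TMM factors and filterByExpr, each fit using the libraries of its 2 groups alone, and Benjamini-Hochberg adjustment over all genes tested, with a threshold of 0.05. The FPKM table and the ratio of CPM to FPKM were tested with limma 3.58.1 on genes with a mean of at least 1, with a pseudocount of 1 on FPKM, alternatives that were added after the data were seen. Fold changes on log2(FPKM + 1) understate changes of low genes. Other alternatives were DESeq2 1.42.0, RLE size factors, no filter, a single fit of all 12 libraries, the replicate number as a block, libraries numbered 1 and 2, and leaving out each library. The scripts were tested on simulated data. Libraries of T1 and T2 with the same number deviated together from their group means (correlations 0.199, 0.341 and 0.166 across genes, each over 0.1), a pairing seen in the data and not stated in the labels, and the block is given beside that comparison. A floor of 3 counts per library was used for detection.

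The families and lists were chosen with earlier results of these data known, while the members of the families were taken by symbol alone. Members past the threshold in at least 1 comparison, and Gng2, were named with a value per library, members at or under 3 counts in every library by name, and of each partner or receptor list at most 2 genes per direction. Other members named with values (such as Rgs20, Gna13, Gnai1, Rgs14, Gng3, Gng8 and Rgs17) were chosen after their values were seen. Positions and coding ends come from GENCODE vM1 on NCBIM37 (mm9), and primers from the supplement of the study, matched exactly. Of the authors' own comparisons only their listing of Gng2 and Gnb1 is cited, and the no-gene reads and the qPCR were not used.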

Additional observations from a re-analysis of the deposited data

Results flagged for a closer look

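At T2 the CPM of Rgs12 in replicate 2 was 200.077, while the other 3 libraries lay between 175.496 and 176.896. The gap to the nearest of them was 0.943 of the range of the group, which is why it stands here. The 34 members tested were examined in this way at T2, the only time point with 4 libraries, and chance picks out about 1 in 20 groups. All 4 values lay above the T0 libraries. The cause was not tested.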

How the results depend on the processing

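The counts of members that rose at T1 (11) and T2 (12) stayed within 1.5 times under DESeq2, RLE size factors, no filter, a single fit of all 12 libraries and the replicate block (11 at T1, 10 at T2). Over all genes those fits called 10.9% to 21.2% higher at T1 and 12.9% to 24.5% at T2. With limma on log2(FPKM + 1) the counts were 7 at T1, 9 at T2 and 0 at T3, beside 9.6%, 11.8% and 0.325% of all genes. Members called lower at T1 were 1 in the fit of all libraries and 5 with libraries numbered 1 and 2, beside 21.2% and 29.9% of all genes. At T2 they were 1 with DESeq2, with the fit of all libraries and with limma on FPKM, and 4 with libraries numbered 1 and 2. The shares of all genes lower at T2 were 17.3%, 24.8%, 22.5% and 27.4% in that order. At T3, DESeq2 called 6 higher, beside 6.26% of all genes. The fit of all libraries called 10 higher and 2 lower at T3, beside 15.4% and 14.4% of all genes. From T1 to T2, DESeq2 called 3 higher, and no filter, the replicate block and libraries numbered 1 and 2 called 1 each. The shares of all genes higher were 1.32%, 0.778%, 1.51% and 0.748% in that order. From T2 to T3, DESeq2 called 1 higher and 1 lower, no filter 1 lower and the replicate block 0. Of all genes, DESeq2 called 2.39% higher and 1.84% lower, no filter 1.65% lower, and the block 0.0397% higher and 0.0714% lower. No paired analysis was possible for T3 against T0 because these groups share 1 number only.

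Leaving out 1 library at a time gave 6 to 13 members higher and 0 to 4 lower at T1, and 10 to 16 and 0 to 3 at T2. From T1 to T2 it gave 0 to 1 higher and 0 lower. At T3 the counts were 0 to 10 higher and 0 to 2 lower where a T0 library was left out. From T2 to T3 they were 0 in each direction where a T2 library was left out. As 1 library was left out, 6.47% to 25.2% of all genes rose at T1 and 16% to 26.7% at T2. The shares that fell were 7.5% to 24.9% and 16.6% to 25.3%. At T3, where a T0 library was left out, 0.104% to 9.94% of all genes rose and 0.00794% to 8.49% fell. From T1 to T2, 0.0716% to 0.477% rose and 0% to 0.0728% fell. From T2 to T3, where a T2 library was left out, 0.00798% to 0.0399% rose and 0% to 0.0956% fell. The 1 member from T1 to T2 was Gnao1, without T2 replicate 3, where 0.477% of all genes rose. From T2 to T3, leaving out T3 replicate 1 or T3 replicate 4 sets a single T3 library against T2. T2 alone then gives the spread, so no calls are given for those fits. The share of Gng2 in Gγ FPKM at T3 was 14.4% with members of a mean FPKM of at least 1 only. On summed CPM, an alternative added after the data were seen, the share of Gng2 in Gγ was 16.6%, 20.8%, 20.5% and 17.8% in T0, T1, T2 and T3, and that of Gi/o in Gα was 34.2%, 38.0%, 37.5% and 32.2%.

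Without T0 replicate 2, Gna13 gave 0.014 at T1 and 0.018 at T2, in place of -0.35 at both without T0 replicate 3. Gnai1 gave -0.56 to 0.38 at T2 and -0.11 to 0.82 at T3 as 1 library was left out, Rgs14 -0.69 to 1.78 at T2, and Rgs7 -0.69 to 0.51 from T2 to T3. Of the members called in at least 1 setting, the others that turned direction were Gng2 on FPKM (-0.29 at T1, -0.30 at T2, -0.78 at T3 and -0.012 from T1 to T2), Rgs17 on FPKM at T2 (-0.58) and Rgs7 on FPKM from T2 to T3 (-0.19). With libraries numbered 1 and 2 Gnai1 at T2 gave 0.36. With the replicate block Rgs14 at T2 gave 0.27. On FPKM, 4 of 30 members turned at T1, 6 of 31 at T2, 7 of 30 at T3, 6 of 31 from T1 to T2 and 8 of 31 from T2 to T3. Uncalled members are included, and no share of all genes was taken beside these counts. The cause of these turns was not tested. Depth limits the genes under 3 counts, and T3 with 2 libraries.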
